A study of Mus musculus with 8 samples.

Results

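Long intergenic noncoding RNAs (lincRNAs) are transcripts of their own genes, lying apart from protein-coding genes, that carry no long reading frame. Every gene that the deposited table types as lincRNA was taken, with the first entry kept where an identifier was repeated and with 1 of the 206 lincRNA identifiers left out beforehand, which gave 205 lincRNAs of 13388 genes in all. Of these, 109 have predicted-model symbols of the form Gm, 64 have Rik clone symbols and 32 have other symbols. The series compared sorted common monocyte progenitors (cMoPs), the dividing bone marrow cells that give rise only to monocytes, with Ly6C+ classical monocytes, which derive from them. Both cell types were wild type mouse bone marrow cells kept for 6 h on a layer of OP9-DLL1 cells or of OP9 cells. OP9 is a mouse bone marrow stromal line, and OP9-DLL1 cells are OP9 cells that carry DLL1, a Notch ligand, on their surface, so all groups met stroma and only the OP9-DLL1 groups met the added ligand. The 4 groups, cMoPs on OP9-DLL1, cMoPs on OP9, monocytes on OP9-DLL1 and monocytes on OP9, have 2 libraries each.

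Some lincRNAs act in the nucleus: Malat1 sits in nuclear speckles, where splicing factors gather, and Neat1 is the scaffold of paraspeckles. Others are the spliced leftovers of host genes whose introns release small nucleolar RNAs (snoRNAs), which guide the chemical modification of ribosomal RNA, or whose transcript holds microRNA hairpins. A further class acts on a neighbouring gene, as Morrbid does in mouse myeloid cells, where it represses Bcl2l11, the gene of the death-promoting protein BIM, and so lengthens the life of short-lived myeloid cells. Most predicted models have no described function.

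Per library, 47316323 to 62459962 reads could be recovered from the deposited values, and 1 read equalled 0.0151 to 0.0231 CPM (counts scaled to a common library size). The labels' cell types were checked on marker genes. The 10 measured progenitor markers summed to 14711 to 21993 CPM in cMoPs and 164 to 299 CPM in monocytes, and the 10 classical monocyte markers to 4378 to 5127 CPM in cMoPs and 8419 to 11768 CPM in monocytes. The Notch target Hes1 had 2.92 and 3.12 CPM in cMoPs on OP9-DLL1, 0.0453 and 0.0365 in cMoPs on OP9, 11.7 and 11.3 in monocytes on OP9-DLL1, and 0.0231 and 0.0372 in monocytes on OP9. Tests are limma-trend fits over all genes, a gene is called where its p adjusted by Benjamini-Hochberg is under 0.05, and changes are log2 fold changes ± SE. Whether replicates are separate animals or cultures is not in the labels. The p-values hence describe only how far these samples differ among themselves, a spread that may be technical.

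The lincRNAs were short and low. Their exons spanned a median of 1.87 kb in 3 blocks, against 4.47 kb in 10 blocks for the 10742 protein-coding genes. The median of their mean levels was 1.86 CPM, against 18.1 CPM for coding genes, and 44 lincRNAs averaged 5 CPM or more, 111 averaged 1 to 5 CPM and 50 less than 1 CPM. On the chromosome, 32 lie head-to-head with a coding gene (opposite strands, starts within 5 kb), and 25 overlap a coding gene. In 13 the exons overlap those of the coding gene, and since the reads do not mark strand the values of these 13 are uncertain. Per library the median lincRNA had 79 to 105 reads and the median coding gene 724 to 1078 reads. Within groups the median difference between the 2 libraries was 0.37 to 0.56 log2 units for lincRNAs and 0.17 to 0.33 for all genes, and the median SE of a contrast was 0.465 against 0.228 log2 units for all genes. Per kilobase of exon, the highest mean levels over the 8 libraries were those of Gm10076 (1146 CPM per kb), Malat1 (258), Mir142hg (166), Gm28875 (105) and AI839979 (35.8). Gm10076 is a predicted model of which 51.3% of the 75-base exon windows also occur in the transcripts of other genes, most in the ribosomal protein gene Rpl41, so reads of the 2 genes may not be separable.

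Active Notch works through the DNA-binding protein RBPJ, whose motif can be looked for around start sites. Bvht, which also rose on OP9-DLL1 in monocytes, was not among the lincRNAs picked for display. The sequences around the start sites of 4 other lincRNAs that rose on OP9-DLL1 in monocytes are shown. Each is the 300-base RefSeq window (GRCm38.p6) from 250 bases before to 50 bases after a start, read on the gene's strand. They are chr7:64001654-64001953 on the plus strand for Gm32633, chr19:11050517-11050816 on the minus strand for AW112010, chr2:128429302-128429601 on the minus strand for Morrbid and chr19:53460372-53460671 on the plus strand for 4833407H14Rik. Capitals mark matches on either strand to TGGGAA or GTGGGAA (RBPJ, the longer form holding the shorter), GAGGAAGT (PU.1, a myeloid factor) or TGACTCA (AP-1). For Gm32633 the window shown is the nearer to the annotated gene start of its 2 RefSeq windows. For AW112010 and Morrbid the RefSeq start lies inside the longer annotated gene.
Gm32633: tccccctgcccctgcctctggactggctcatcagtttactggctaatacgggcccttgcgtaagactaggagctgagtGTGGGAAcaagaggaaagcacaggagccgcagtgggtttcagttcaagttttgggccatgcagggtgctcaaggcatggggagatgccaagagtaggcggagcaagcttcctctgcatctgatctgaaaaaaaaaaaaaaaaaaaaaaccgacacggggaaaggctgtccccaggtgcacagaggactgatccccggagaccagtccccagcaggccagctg
AW112010: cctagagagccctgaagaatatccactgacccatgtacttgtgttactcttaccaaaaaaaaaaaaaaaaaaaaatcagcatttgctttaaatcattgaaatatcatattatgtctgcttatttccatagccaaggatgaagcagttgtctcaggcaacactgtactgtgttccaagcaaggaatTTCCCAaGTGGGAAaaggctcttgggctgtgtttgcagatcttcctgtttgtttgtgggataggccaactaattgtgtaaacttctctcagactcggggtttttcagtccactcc
Morrbid: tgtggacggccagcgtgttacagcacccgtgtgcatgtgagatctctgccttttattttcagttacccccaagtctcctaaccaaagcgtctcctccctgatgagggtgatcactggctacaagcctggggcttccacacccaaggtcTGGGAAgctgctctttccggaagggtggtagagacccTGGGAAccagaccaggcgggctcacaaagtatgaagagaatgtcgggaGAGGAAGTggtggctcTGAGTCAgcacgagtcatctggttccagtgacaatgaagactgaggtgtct
4833407H14Rik: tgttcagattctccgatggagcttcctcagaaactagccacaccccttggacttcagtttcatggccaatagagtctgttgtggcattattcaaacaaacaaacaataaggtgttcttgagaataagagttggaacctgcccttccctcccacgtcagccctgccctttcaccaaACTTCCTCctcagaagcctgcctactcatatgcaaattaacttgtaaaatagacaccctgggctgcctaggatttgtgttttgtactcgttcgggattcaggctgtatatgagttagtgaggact

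GTGGGAA begins 172 bases before the start of Gm32633 and 58 bases before that of AW112010, where a TGGGAA on the other strand lies just upstream. Morrbid has TGGGAA at 102 and 65 bases before its start, GAGGAAGT at 17 bases and the AP-1 motif on the other strand at 1 base. The window of 4833407H14Rik holds GAGGAAGT on the other strand, 75 bases before the start. Of the 141 RefSeq windows of 116 lincRNAs, 4.26% hold GTGGGAA, beside 6.38% of all 32851 windows, and 17% hold TGGGAA, beside 25.6% of all. GAGGAAGT is in 6.38% of lincRNA windows and 3.2% of all windows, and TGACTCA in 7.09% of lincRNA windows and 5.2% of all. The NF-kB motif was searched as well and is in 0.709% of lincRNA windows and 0.155% of all, but in none of the 4 shown. A match is a description of the letters, not a bound site.

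In monocytes, 5 of 204 tested lincRNAs rose on OP9-DLL1 and 0 fell. They were Gm32633, Morrbid, 4833407H14Rik, AW112010 and Bvht. The share that rose, 2.45%, stands beside 3.36% of all genes, the share that fell beside 3.03%, and the 2 directions together beside 6.39%. By limma-trend 11 lincRNAs were higher and 13 lower where p was left unadjusted at 0.05. With 1 added to each CPM the fit called 11 higher and 1 lower, voom 7 higher and 2 lower, and median centring 5 higher and 2 lower. The authors' deposited table has 3 higher, Gm32633, Morrbid and Bvht, and 0 lower. The median change over the lincRNAs was 0.06 log2 units and over all genes 0.01. In such bulk libraries, fewer cells of a type and less RNA per cell cannot be told apart.

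Gm32633 (chromosome 7, 64001885 to 64020959, plus strand, 0.72 kb of exon), a predicted model whose sequence has no 75-base window shared with another transcript, had the largest change of the 5. It had 12.4 and 10.5 CPM in cMoPs on OP9-DLL1, 2.27 and 3.91 in cMoPs on OP9, 21.2 and 37.3 in monocytes on OP9-DLL1, and 1.69 and 2.77 in monocytes on OP9. In each cell type both OP9-DLL1 libraries lay above both OP9 libraries. The log2 fold change was 1.94 ± 0.37 in cMoPs (adjusted p = 0.057, limma) and 3.69 ± 0.37 in monocytes (adjusted p = 0.0011). In the authors' deposited table the cMoP change was 1.96 with an adjusted p of 0.0192. The nearest coding gene, Klf13, a transcription factor gene that starts 63.0 kb away, had 203 and 200.5 CPM in cMoPs on OP9-DLL1 and 175 and 154 CPM in cMoPs on OP9 (0.30 ± 0.13, adjusted p = 0.54). In monocytes Klf13 rose to 561 and 573 CPM on OP9-DLL1, against 425 and 333 CPM on OP9 (0.59 ± 0.13, adjusted p = 0.033).

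Morrbid (chromosome 2, 128178319 to 128502765, minus strand) averaged 14.05 CPM per kb over the 8 libraries. Its levels were 60.3 and 69.6 CPM in cMoPs on OP9-DLL1, 41.7 and 41.9 in cMoPs on OP9, 75.2 and 77.2 in monocytes on OP9-DLL1, and 45.1 and 46.4 in monocytes on OP9. All 4 OP9-DLL1 libraries stood above all 4 OP9 libraries. The change was 0.63 ± 0.12 in cMoPs (adjusted p = 0.063, limma) and 0.74 ± 0.12 in monocytes (adjusted p = 0.010), and the authors' deposited table gives 0.63 with an adjusted p of 0.0132 for cMoPs. Bcl2l11, the gene that Morrbid is known to repress, had 5.74 and 6.36 CPM in cMoPs on OP9-DLL1 and 7.53 and 8.34 CPM in cMoPs on OP9 (-0.39 ± 0.17, adjusted p = 0.51). In monocytes Bcl2l11 was at 36.0 and 44.2 CPM on OP9-DLL1 and 36.2 and 37.1 CPM on OP9 (0.12 ± 0.17, adjusted p = 0.73). Between the cell types, Bcl2l11 was lower in cMoPs on both stromas (-2.72 ± 0.17 on OP9-DLL1 and -2.21 ± 0.17 on OP9), while Morrbid did not pass on either (-0.23 ± 0.12 on OP9-DLL1 and -0.13 ± 0.12 on OP9).

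AW112010 (chromosome 19, 11047612 to 11055808, minus strand), a transcript known from mouse macrophages to be induced by interferon and bacterial products, had 15.2 and 13.3 CPM in cMoPs on OP9-DLL1, 8.37 and 10.1 in cMoPs on OP9, 12.7 and 9.65 in monocytes on OP9-DLL1, and 5.70 and 5.51 in monocytes on OP9. Its OP9-DLL1 libraries exceeded the OP9 libraries within each cell type (0.63 ± 0.21 in cMoPs, adjusted p = 0.32, and 0.98 ± 0.21 in monocytes, adjusted p = 0.026). In the authors' deposited table AW112010 passed in neither, with an adjusted p of 0.115 in cMoPs and 0.118 in monocytes. Bvht (Braveheart; chromosome 18, 61639542 to 61647472), first described in mouse heart development, had 0.685 and 2.35 CPM in cMoPs on OP9-DLL1, 0.967 and 0.876 in cMoPs on OP9, 15.2 and 12.9 in monocytes on OP9-DLL1, and 4.09 and 1.67 in monocytes on OP9. The 2 monocyte libraries on OP9-DLL1 stood apart from the other 6. Its change was 0.46 ± 0.58 in cMoPs (adjusted p = 0.90) and 2.42 ± 0.58 in monocytes (adjusted p = 0.041).

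4833407H14Rik (chromosome 19, 53460622 to 53462723), named after its values were seen because its mean stayed below 5 CPM, had 1.58 and 1.27 CPM in cMoPs on OP9-DLL1, 0.408 and 0.657 in cMoPs on OP9, 3.10 and 2.68 in monocytes on OP9-DLL1, and 0.6003 and 0.409 in monocytes on OP9 (2.51 ± 0.46 in monocytes, adjusted p = 0.015). It shares 66.0% of its 75-base windows with other transcripts, most with Mirt1, a noncoding gene typed otherwise. Mirt1 rose as well in monocytes, to 6.45 and 5.63 CPM on OP9-DLL1, against 0.416 and 0.744 CPM on OP9 (3.41 ± 0.40, adjusted p = 0.0022), so the 2 values may rest on common reads. Of the 5 calls, that of Gm32633 held in all 13 alternative settings. Those of Morrbid, 4833407H14Rik, AW112010 and Bvht ended when monocyte OP9-DLL1 replicate 1 was left out and also when replicate 2 was, with highest adjusted p-values of 0.0933, 0.100, 0.155 and 0.187. The call of Bvht also ended without monocyte OP9 replicate 2. With no trend the calls of Morrbid, AW112010 and Bvht ended, with only the 4 monocyte libraries those of Morrbid and AW112010, and with weighted voom those of AW112010 and 4833407H14Rik.

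**Figure D1:**
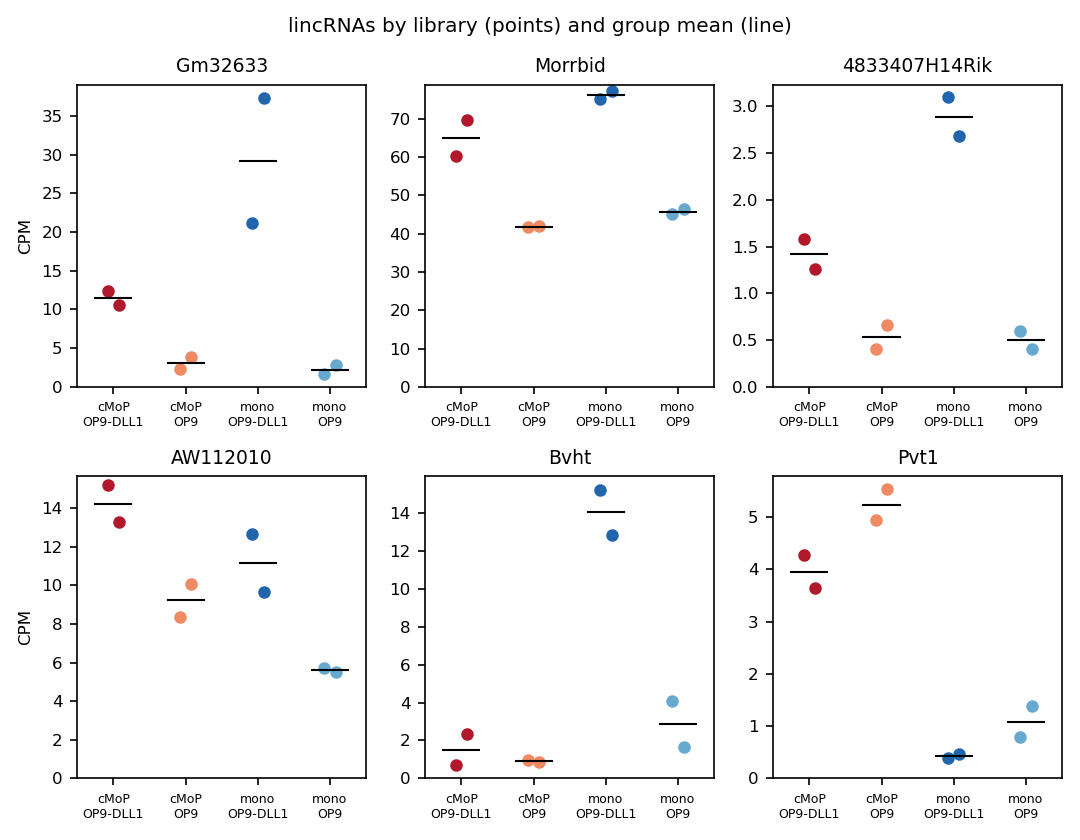
CPM by library (points) and group mean (line) for the 5 lincRNAs that rose on OP9-DLL1 in monocytes and for Pvt1, with each panel's axis starting at 0. In monocytes Gm32633 had 21.2 and 37.3 CPM on OP9-DLL1, against 1.69 and 2.77 CPM on OP9, while Bvht was low in both cMoP groups.

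Among the lincRNAs of known role that did not pass in monocytes, Pvt1, the neighbour of the proto-oncogene Myc, had 0.390 and 0.466 CPM on OP9-DLL1 and 0.785 and 1.38 CPM on OP9 (-1.27 ± 0.37, adjusted p = 0.081). The groups did not overlap. Myc, whose start lies 52.6 kb away, fell to 5.05 and 6.31 CPM on OP9-DLL1, against 15.1 and 20.8 CPM on OP9 (-1.65 ± 0.18, adjusted p = 0.0014). Snhg15, a snoRNA host, had 5.44 and 5.80 CPM on OP9-DLL1 and 8.82 and 7.76 CPM on OP9 (-0.56 ± 0.16, adjusted p = 0.071). Gm32089, a predicted model and not one of known role, was named for its change between cell types on OP9. In monocytes Gm32089 had 3.18 and 1.26 CPM on OP9-DLL1 and 7.92 and 6.92 CPM on OP9 (-1.88 ± 0.52, adjusted p = 0.069, limma). Ptgs2os2 (lincRNA-Cox2), known in mouse macrophages as induced through Toll-like receptors, had 3.35 and 2.13 CPM on OP9-DLL1 and 4.39 and 3.52 CPM on OP9 (-0.55 ± 0.35, adjusted p = 0.40). Between the same monocyte libraries, markers of platelets and megakaryocytes differed: Pf4 and Ppbp, the 2 measured, summed to 22.2 and 12.7 CPM on OP9-DLL1 and 113 and 195 CPM on OP9. Of the stromal marker list, 9 of 23 were measured, and they summed to 7.23 and 25.02 CPM on OP9-DLL1 and 42.0 and 37.2 CPM on OP9. None of the 9 was called lower by limma. Pdgfrb, named after its values were seen, was the 1 called higher, at 2.89 and 4.23 CPM on OP9-DLL1 and 0.0231 and 0.205 CPM on OP9 (5.35 log2 units, adjusted p = 0.012). Of the 4 measured dendritic cell markers, 2 were higher on OP9-DLL1, Batf3 (3.03) and Mgl2 (2.79), and 0 lower. Their part in the lincRNA values was not tested.

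In cMoPs, 0 of 204 lincRNAs passed on OP9-DLL1 against OP9 in either direction by limma-trend, beside 0.464% of all genes higher, 0.307% lower and 0.77% in either direction. With p left unadjusted at 0.05, 11 were higher and 8 lower, and the authors' deposited table has 2 higher and 2 lower. With the 4 cMoP libraries alone, and also with weighted voom, 2 were higher and 2 lower. The median change was -0.06 log2 units, against 0.01 over all genes. No lincRNA passed in the difference of the 2 responses (cMoPs minus monocytes) by limma-trend, beside 0.0299% of all genes larger, 0.0224% smaller and 0.0523% in either direction. With p left unadjusted at 0.05, 5 had a larger and 6 a smaller change in cMoPs. For none of the 5 lincRNAs that rose in monocytes was a different response in cMoPs shown. The difference was -1.76 ± 0.52 for Gm32633 (adjusted p = 0.34, limma), -1.96 ± 0.82 for Bvht (adjusted p = 0.48) and -0.10 ± 0.17 for Morrbid (adjusted p = 0.89). AW112010 and 4833407H14Rik did not pass either. The median SE of this difference was 0.658 log2 units over the lincRNAs, against 0.323 over all genes. Equal responses are hence not shown either.

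Without monocyte OP9 replicate 2, 5 lincRNAs passed in the difference, 1 with a larger and 4 with a smaller change in cMoPs. Among low members, named after their values were seen, Gm5086 had 0 reads in both cMoP libraries on OP9-DLL1 and 22 reads over both on OP9, which is at least 7.05-fold lower (floor of 3 counts over the group, counting error only). In monocytes Gm5086 had 1.15 and 1.32 CPM on OP9-DLL1 and 0.139 and 0.242 CPM on OP9. The order of the 2 stromas was opposite in the 2 cell types, but neither change passed (adjusted p = 0.18 in cMoPs and 0.22 in monocytes) and the difference did not pass either (adjusted p = 0.22). 1700001L05Rik had 0.316 and 0.624 CPM in cMoPs on OP9-DLL1, 1.38 and 1.53 in cMoPs on OP9, 1.13 and 1.71 in monocytes on OP9-DLL1, and 0.739 and 0.614 in monocytes on OP9 (difference -2.72 ± 0.72, adjusted p = 0.26).

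**Figure D2:**
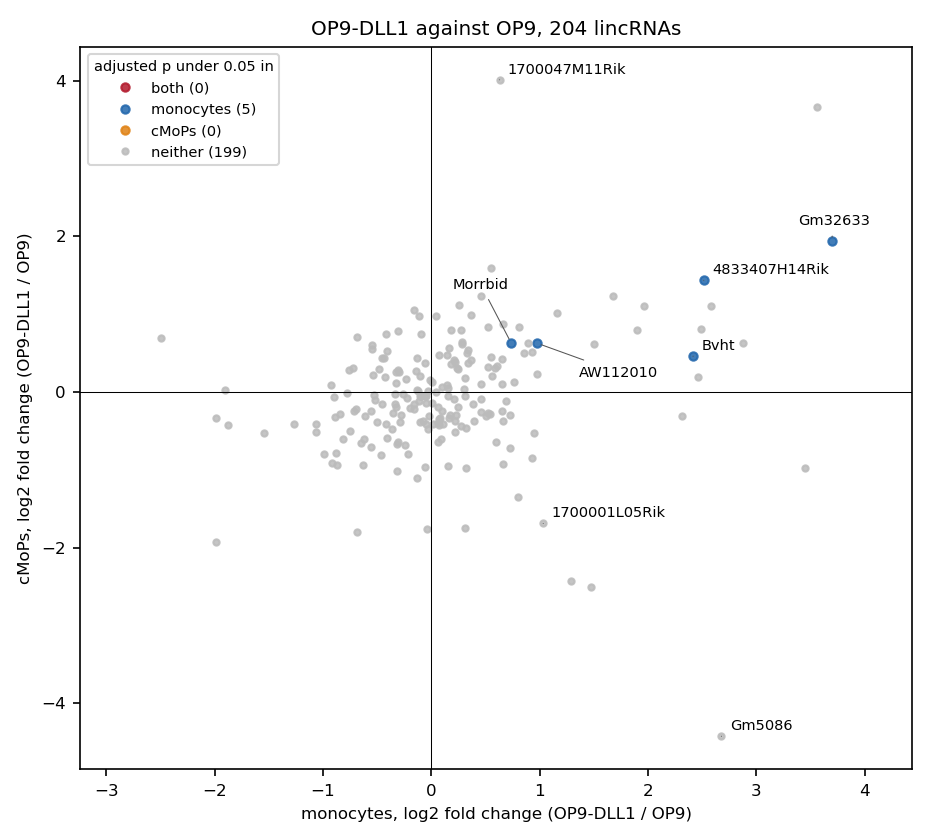
Log2 fold change on OP9-DLL1 against OP9 of each of the 204 tested lincRNAs in monocytes (x axis) and cMoPs (y axis). The 5 coloured points passed in monocytes, 0 passed in cMoPs, and Gm5086, at -4.42 in cMoPs and 2.68 in monocytes on fitted values that rest on few reads, did not pass in either.

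Between the cell types, the lincRNAs differed widely. On OP9-DLL1, 36 of 204 were higher in cMoPs (17.6%, beside 28.2% of all genes) and 75 were lower (36.8%, beside 29.2%), together 54.4%, beside 57.4% of all genes. On OP9, 43 were higher (21.1%, beside 28.8%) and 68 lower (33.3%, beside 27.7%), together again 54.4%, beside 56.5% of all genes. The median change over the lincRNAs was -0.56 log2 units on OP9-DLL1 and -0.35 on OP9, against -0.01 and 0.01 over all genes. It went with level, at -0.20 and -0.12 for the 44 lincRNAs averaging 5 CPM or more. For the 49 tested below 1 CPM it was -1.60 and -0.86. The filter kept lincRNAs this low only through libraries where they reached 1 CPM, so the median and the split of calls depend partly on it. Other genes of like level were not compared. Of the tested coding genes, 28.9% were higher and 30.9% lower on OP9-DLL1, and 29.4% higher and 29.5% lower on OP9. Calls on both stromas numbered 91, all in the same direction (33 higher and 58 lower), which is 82.0% of the calls on each stroma. Over all genes the shared calls were 80.9% of those on OP9-DLL1 and 82.2% of those on OP9, so the share among lincRNAs lay at the background. In all, 73 lincRNAs passed on neither. On OP9 the called changes had a median size of 1.97 log2 units among the higher and 2.21 among the lower lincRNAs, and 21 of the higher and 37 of the lower were over 4-fold.

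In cMoP libraries 123 to 134 lincRNAs reached 1 CPM, and in monocyte libraries 148 to 163 did. The same count over all genes was not made. The filter used the same 1 CPM, so lincRNAs kept only through their monocyte libraries, such as Gm20703, widen this gap by construction. All lincRNAs together summed to 2233 to 2549 CPM in cMoPs and 4242 to 4784 CPM in monocytes. Malat1 made up 32.0% to 38.0% of that sum in cMoPs and 60.1% to 63.9% in monocytes, and without Malat1 the sums were 1518 to 1587 CPM in cMoPs and 1691 to 1745 CPM in monocytes.

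**Figure D3:**
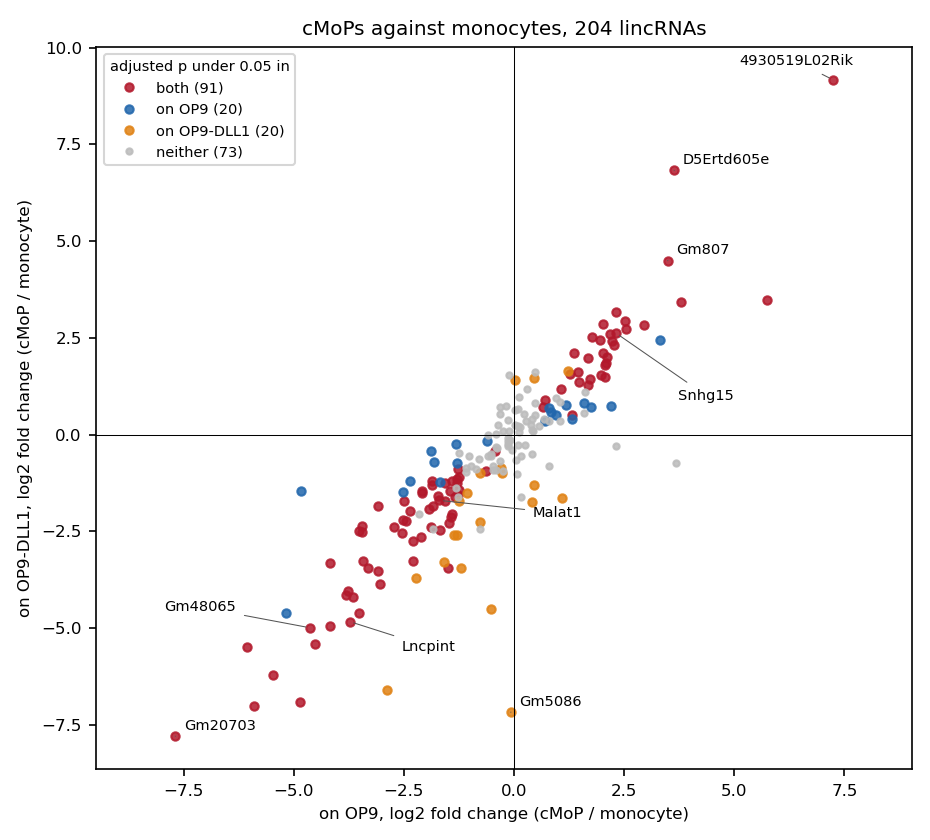
Log2 fold change of cMoPs over monocytes for each of the 204 tested lincRNAs on OP9 (x axis) and on OP9-DLL1 (y axis), coloured by where the adjusted p was under 0.05. The 91 lincRNAs called on both stromas lie at the lower left (58) and upper right (33), and points such as Gm20703 and 4930519L02Rik, with 0 reads in a group, are at fitted values that are no bound.

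Both nuclear body lincRNAs were lower in cMoPs. Malat1 (chromosome 19, 5795690 to 5802672) had 968 and 715 CPM in cMoPs on OP9-DLL1, 949 and 779 in cMoPs on OP9, 2830.2 and 2573 in monocytes on OP9-DLL1, and 3059 and 2551 in monocytes on OP9. Every monocyte library lay above every cMoP library (-1.70 ± 0.17 on each stroma, adjusted p = 3.1e-05 on OP9-DLL1 and 3.7e-05 on OP9, limma). Neat1 (chromosome 19, 5824708 to 5845478), its neighbour on the chromosome, had 63.5 and 49.3 CPM in cMoPs on OP9-DLL1, 62.4 and 56.6 in cMoPs on OP9, 171 and 160.1 in monocytes on OP9-DLL1, and 143 and 142 in monocytes on OP9. The change was -1.56 ± 0.14 on OP9-DLL1 and -1.26 ± 0.14 on OP9. Of 14 genes of speckle and paraspeckle proteins, 9 were higher and 1 lower in cMoPs on OP9-DLL1, and 7 higher and 1 lower on OP9 (median 0.38 and 0.42 log2 units, against -0.01 and 0.01 for all genes).

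The snoRNA hosts were mostly higher in cMoPs. Of the 8 lincRNAs whose annotated span holds a snoRNA, 5 were higher and 1 lower in cMoPs, on OP9-DLL1 and on OP9 alike (median 1.904 and 2.001 log2 units). Beside them, 28.2% of all genes were higher and 29.2% lower on OP9-DLL1, and 28.8% higher and 27.7% lower on OP9 (median -0.01 and 0.01). Snhg15 (chromosome 11, 6525591 to 6528760) had 34.0 and 35.4 CPM in cMoPs on OP9-DLL1, 43.2 and 39.3 in cMoPs on OP9, 5.44 and 5.80 in monocytes on OP9-DLL1, and 8.82 and 7.76 in monocytes on OP9 (2.62 ± 0.16 on OP9-DLL1 and 2.31 ± 0.16 on OP9, adjusted p = 1.6e-06 and 4.6e-06). Every cMoP library was above every monocyte library. Snhg6 (1.80 ± 0.20 on OP9-DLL1 and 2.06 ± 0.20 on OP9), 2700038G22Rik (2.60 ± 0.28 and 2.18 ± 0.28), Snhg12 (2.01 ± 0.35 and 2.10 ± 0.35) and Epb41l4aos (2.44 ± 0.25 and 1.95 ± 0.25) were higher too.

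The exceptions were Snhg20, Snhg10 and 2900076A07Rik. Snhg20 had 10.6 and 10.6 CPM in cMoPs on OP9-DLL1, 8.39 and 8.89 in cMoPs on OP9, 13.01 and 13.8 in monocytes on OP9-DLL1, and 13.5 and 9.39 in monocytes on OP9 (-0.34 ± 0.20 on OP9-DLL1, adjusted p = 0.18, and -0.38 ± 0.20 on OP9, adjusted p = 0.14). Snhg10 did not pass either (0.54 ± 0.53 and 0.22 ± 0.53), and 2900076A07Rik, named after its values were seen, was lower (-1.60 ± 0.38 and -1.72 ± 0.38). Snhg6 overlaps exons of the coding gene Mcmdc2, which had 0.439 to 0.876 CPM in cMoPs and 1.93 to 2.63 CPM in monocytes, the opposite order. The opposite strands of such overlapping genes cannot be told apart with unstranded libraries.

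Some host genes that the table types otherwise were looked up, and those measured were higher in cMoPs as well. They were Gas5 (1.65 ± 0.10 on OP9), Snhg1 (1.97 ± 0.19), Snhg8 (1.27 ± 0.17) and Zfas1 (2.71 ± 0.15). The remaining hosts of other types were not looked up. Most genes of the proteins that bind snoRNAs were higher too. Over all genes, 28.2% were higher in cMoPs on OP9-DLL1 and 28.8% on OP9. Of 13 such genes (box C/D and H/ACA proteins and their assembly factors), 12 were higher in cMoPs on OP9-DLL1 and 13 on OP9 (medians 2.21 and 1.61 log2 units). In monocytes on OP9-DLL1, where 3.03% of all genes fell, 0 of the 13 rose and 5 fell. They were Gar1 (-1.36 ± 0.22), Nop58 (-1.12 ± 0.16), Nop56 (-0.77 ± 0.12), Nhp2 (-0.70 ± 0.12) and Ruvbl1 (-0.58 ± 0.14), with a median over the 13 of -0.58, while the 8 lincRNA hosts had a median of -0.20. The 15 cell cycle markers, which move with these genes between cell types, summed to 4142 to 4919 CPM in cMoPs and 989 to 1839 CPM in monocytes, and 10 of them on OP9-DLL1 and 12 on OP9 were higher in cMoPs. Their part in the host values was not tested.

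**Figure D4:**
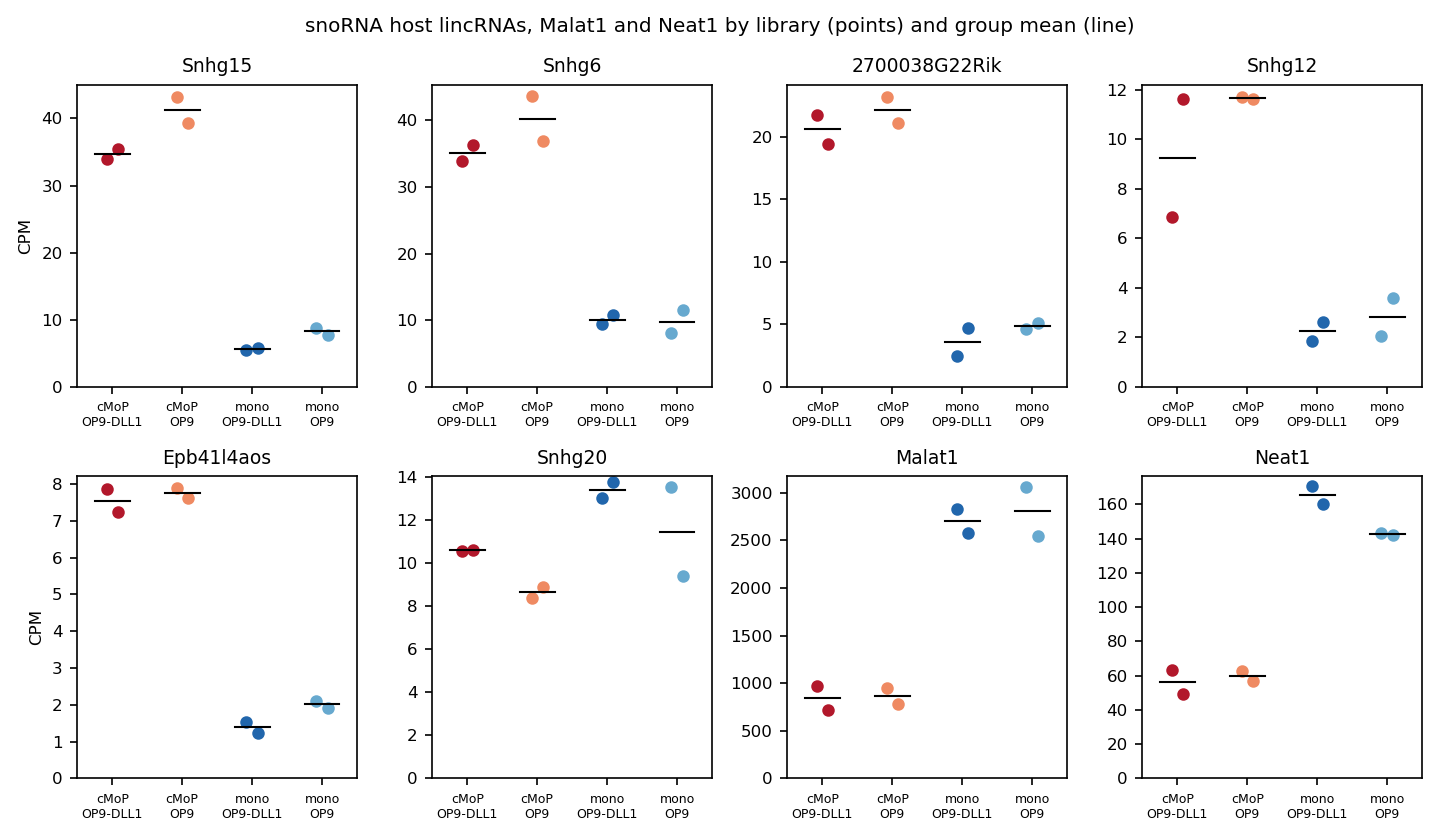
CPM by library (points) and group mean (line) of 6 snoRNA host lincRNAs, Malat1 and Neat1, each axis starting at 0. In Snhg15, Snhg6, 2700038G22Rik, Snhg12 and Epb41l4aos every cMoP library is above every monocyte library, in Malat1 and Neat1 every monocyte library is above every cMoP library, and in Snhg20 the monocytes on OP9 overlap the cMoPs.

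The microRNA hosts split. Mir17hg, the primary transcript of the miR-17-92 cluster and a known target of MYC, had 4.16 and 4.47 CPM in cMoPs on OP9-DLL1, 6.91 and 6.24 in cMoPs on OP9, 1.09 and 0.582 in monocytes on OP9-DLL1, and 1.25 and 1.58 in monocytes on OP9. It was higher in cMoPs on both stromas (2.42 ± 0.35 on OP9-DLL1 and 2.22 ± 0.35 on OP9). Mir142hg, host of the blood-cell microRNA miR-142, had 38.2 and 30.8 CPM in cMoPs on OP9-DLL1, 43.0 and 30.8 in cMoPs on OP9, 61.9 and 62.2 in monocytes on OP9-DLL1, and 39.0 and 52.0 in monocytes on OP9. It was lower in cMoPs on OP9-DLL1 (-0.86 ± 0.20, adjusted p = 0.0056), a call that ended without cMoP OP9-DLL1 replicate 2 (adjusted p = 0.0518), and did not pass on OP9 (-0.31 ± 0.20, adjusted p = 0.22). The mature microRNAs were not measured. They are printed from RefSeq (GRCm38.p6) to show what the 2 hosts encode, with the seed in capitals (bases 2 to 8). In the cluster, miR-17-5p and miR-20a-5p share a seed, miR-19a-3p and miR-19b-3p share another, and neither miR-142a arm has a seed of the cluster.
miR-17-5p (Mir17hg): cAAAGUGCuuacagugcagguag
miR-20a-5p (Mir17hg): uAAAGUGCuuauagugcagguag
miR-18a-5p (Mir17hg): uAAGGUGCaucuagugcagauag
miR-19a-3p (Mir17hg): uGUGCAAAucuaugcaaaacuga
miR-19b-3p (Mir17hg): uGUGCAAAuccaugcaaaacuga
miR-92a-3p (Mir17hg): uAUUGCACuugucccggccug
miR-142a-5p (Mir142hg): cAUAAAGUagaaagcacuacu
miR-142a-3p (Mir142hg): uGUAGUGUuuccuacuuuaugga

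Pvt1 (chromosome 15, 62037986 to 62378096) and Lncpint, a transcript known to be induced by p53, lay on opposite sides. Pvt1 had 4.27 and 3.64 CPM in cMoPs on OP9-DLL1, 4.94 and 5.53 CPM in cMoPs on OP9, and 0.390 to 1.38 CPM over the 4 monocyte libraries. It was higher in cMoPs (3.18 ± 0.37 on OP9-DLL1 and 2.32 ± 0.37 on OP9), as was Myc (4.83 ± 0.18 and 3.48 ± 0.18). Lncpint (chromosome 6, 31082565 to 31220488) had 0.246 and 0.135 CPM in cMoPs on OP9-DLL1, 0.589 and 0.219 in cMoPs on OP9, 6.79 and 4.35 in monocytes on OP9-DLL1, and 4.36 and 5.45 in monocytes on OP9. It was lower in cMoPs (-4.83 ± 0.56 on OP9-DLL1 and -3.73 ± 0.56 on OP9). Dubr was lower in cMoPs on both stromas (-2.21 ± 0.19 and -2.51 ± 0.19).

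Other lincRNAs of known role passed in few comparisons or none. Oip5os1 (Cyrano), which in mouse triggers the decay of the microRNA miR-7, did not pass between cell types on OP9-DLL1 (-0.17 ± 0.13, adjusted p = 0.30) and was lower in cMoPs on OP9 (-0.61 ± 0.13, adjusted p = 0.0036). Ftx and Jpx, both transcribed beside Xist at the X-inactivation centre, passed in no comparison. Ftx ranged from 4.83 to 7.87 CPM and Jpx from 1.498 to 2.48 CPM over the 8 libraries, with changes of 0.25 ± 0.28 and 0.01 ± 0.35 between the cell types on OP9. 2900097C17Rik, at 11.6 CPM per kb, passed in no comparison either and lay between 48.7 and 63.1 CPM in all libraries. Lockd, which starts 8.69 kb from the cell cycle inhibitor gene Cdkn1b, had 21.3 and 19.1 CPM in cMoPs on OP9-DLL1, 18.4 and 19.1 in cMoPs on OP9, 16.7 and 17.9 in monocytes on OP9-DLL1, and 9.54 and 16.7 in monocytes on OP9 (0.57 ± 0.24 on OP9, adjusted p = 0.068). Over the same libraries Cdkn1b was lower in cMoPs (-2.67 ± 0.22 on OP9-DLL1 and -2.68 ± 0.22 on OP9).

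Large differences were seen in predicted models. Gm48065 (chromosome 10, 44597889 to 44602174, minus strand) had 0.650 and 0.928 CPM in cMoPs on OP9-DLL1, 1.27 and 0.511 in cMoPs on OP9, 25.1 and 24.9 in monocytes on OP9-DLL1, and 19.6 and 20.7 in monocytes on OP9. It was lower in cMoPs (-4.99 ± 0.39 on OP9-DLL1 and -4.63 ± 0.39 on OP9). The overlapping model Gm35154 (chromosome 10, 44598720 to 44689081, plus strand) was lower too (-4.20 ± 0.48 and -3.65 ± 0.48), and so was Gm48066 (-3.46 ± 0.77 and -3.31 ± 0.77), named after its values were seen. Gm35154 shares 31.9% of its windows with other transcripts, most with Gm48065, so with unstranded reads the 2 cannot be fully told apart. For all 3 the nearest coding gene is Prdm1, which encodes the repressor BLIMP1 and starts 70.2 to 119 kb away. Prdm1 had 1.40 and 0.759 CPM in cMoPs on OP9-DLL1, 0.332 and 0.292 in cMoPs on OP9, 24.2 and 26.2 in monocytes on OP9-DLL1, and 12.9 and 17.7 in monocytes on OP9 (-4.60 ± 0.33 on OP9-DLL1 and -5.56 ± 0.33 on OP9).

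Other monocyte-high models were Gm34084, with 0.810 to 1.97 CPM over the cMoP libraries and 16.5 to 26.6 CPM over the monocyte libraries (-4.13 ± 0.24 on OP9-DLL1 and -3.82 ± 0.24 on OP9), and Gm26532, with 1.31 to 2.18 CPM in cMoPs and 12.0 to 17.5 CPM in monocytes (-2.51 ± 0.23 and -3.44 ± 0.23). Gm39556 (-2.49 ± 0.33 and -3.52 ± 0.33), whose nearest coding gene is the interferon-induced Ly6e, and Gm46224 (-2.76 ± 0.21 and -2.30 ± 0.21), beside the inhibitory receptor gene Lilrb4a, were lower in cMoPs along with those neighbours. AI839979 was lower as well (-1.31 ± 0.16 and -1.87 ± 0.16). Gm28935, named after its values were seen, had 0.140 and 0 CPM in cMoPs on OP9-DLL1, 0.302 and 0.0365 in cMoPs on OP9, 4.19 and 4.35 in monocytes on OP9-DLL1, and 4.55 and 2.60 in monocytes on OP9. It starts 13.2 kb from Ms4a4a, a membrane protein gene at 8.37 to 13.5 CPM in cMoPs and 1700.5 to 1993 CPM in monocytes. Gm20703, named likewise, had 0 reads in all 4 cMoP libraries and 193 and 165 reads over the monocyte groups on OP9-DLL1 and OP9, which is at least 74.6-fold and 68.5-fold lower in cMoPs.

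On the progenitor side, 4930519L02Rik (chromosome 3, 143017660 to 143040752) had 6.74 and 4.89 CPM in cMoPs on OP9-DLL1, 4.85 and 6.57 in cMoPs on OP9, 0 and 0 in monocytes on OP9-DLL1, and 0 and 0.112 in monocytes on OP9. On OP9-DLL1 that is 674 reads in cMoPs and 0 in monocytes, at least 194-fold higher. Gm807 had 6.38 and 3.36 CPM in cMoPs on OP9-DLL1, 6.26 and 7.16 in cMoPs on OP9, 0.0821 and 0.446 in monocytes on OP9-DLL1, and 0.392 and 0.874 in monocytes on OP9 (4.50 ± 0.72 on OP9-DLL1 and 3.49 ± 0.72 on OP9). D5Ertd605e, named after its values were seen, had 2.81 to 5.20 CPM in cMoPs and 0 to 0.298 CPM in monocytes. Gm47283, a model on the Y chromosome, was higher in cMoPs (1.99 ± 0.25 and 1.68 ± 0.25), with 35.0% of its windows shared with other transcripts. Gm10076, the model that resembles Rpl41, was higher as well (0.73 ± 0.11 and 0.67 ± 0.11), as was Rpl41 (0.86 ± 0.14 and 0.99 ± 0.14).

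For 151 lincRNAs the nearest coding gene by start was itself tested. Across these pairs the cell type differences of lincRNA and neighbour had a Pearson r of 0.381 and a Spearman rho of 0.424 on OP9-DLL1, and an r of 0.424 and a rho of 0.402 on OP9. These are across genes of the same libraries, and genes are not independent replicates. Both partners were called in 61 pairs on OP9-DLL1, 49 of them in the same direction, and in 58 pairs on OP9, 48 in the same direction. Pairs of other genes were not computed, so whether these values exceed a background was not tested. The 31 tested head-to-head pairs, with starts within 5 kb on opposite strands, had an r of 0.38 on OP9-DLL1 and 0.429 on OP9, and the other 120 pairs 0.378 and 0.422. For the OP9-DLL1 response, r over all pairs was 0.131 in cMoPs (rho 0.218) and 0.306 in monocytes (rho 0.331). In monocytes the head-to-head pairs had an r of -0.185 (rho -0.08) and the other pairs an r of 0.345 (rho 0.399), a difference that was not tested. Pairs in opposite directions included Gm31718 (-2.30 ± 0.39 on OP9) with Tomm20, a mitochondrial import receptor gene (2.63 ± 0.23), and 2310001H17Rik (-1.58 ± 0.26) with the activation marker gene Cd69 (3.43 ± 0.31), the second pair named after its values were seen.

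**Figure D5:**
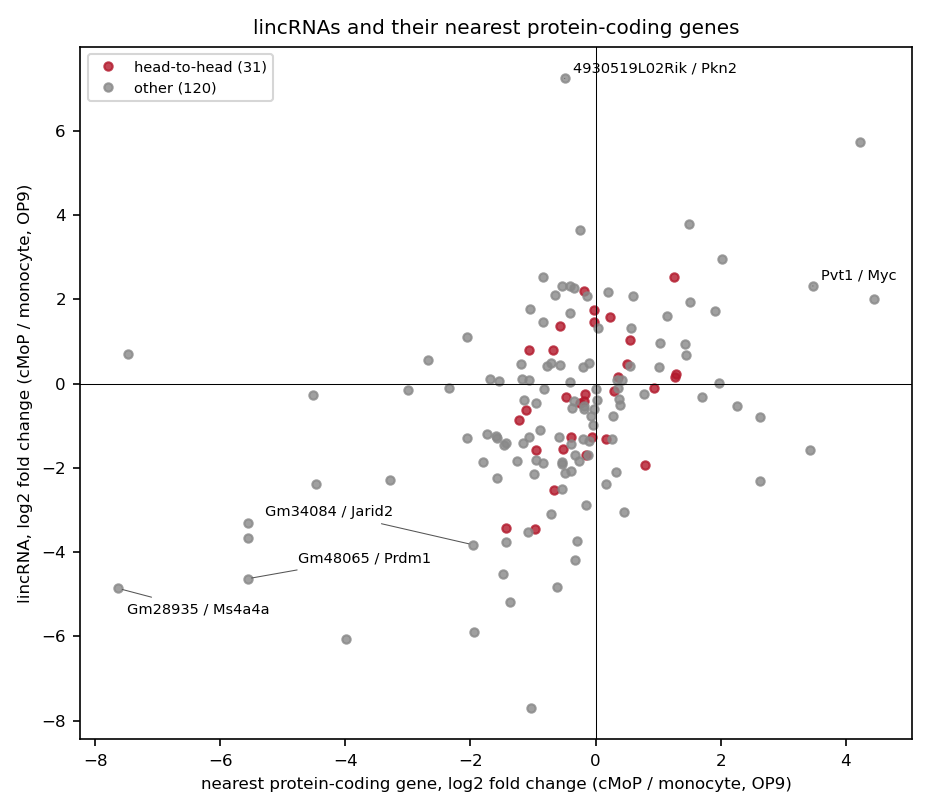
Log2 fold change of cMoPs over monocytes on OP9 for 151 lincRNAs (y axis) and their nearest tested protein-coding gene (x axis), with 31 head-to-head pairs coloured. Labelled pairs include Gm48065 with Prdm1 and Pvt1 with Myc, which moved together, and 4930519L02Rik with Pkn2, which did not.

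Genes that process or act with noncoding RNAs were counted for comparison, to be read beside the shares over all genes, 28.2% higher and 29.2% lower in cMoPs on OP9-DLL1 and 28.8% higher and 27.7% lower on OP9. Of 17 genes of the nuclear exosome, which trims and degrades nuclear RNA, and its adaptors, 12 were higher and 2 lower in cMoPs on each stroma (medians 1.02 on OP9-DLL1 and 0.76 on OP9). In monocytes on OP9-DLL1, where 3.36% of all genes rose and 3.03% fell, Exosc3 rose (1.82 ± 0.40), while Exosc7 (-0.73 ± 0.18) and Exosc8 (-0.41 ± 0.10) fell. Of 16 partners of Xist, 7 were higher and 2 lower on OP9-DLL1, and 7 higher and 1 lower on OP9. Of 14 genes of nonsense-mediated decay, 6 were higher and 3 lower on OP9-DLL1, and 6 higher and 2 lower on OP9. The 11 microRNA processing genes divided, with 4 higher and 4 lower on OP9-DLL1, and 4 higher and 3 lower on OP9, near the shares over all genes.

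Marker genes of other cells also moved with the cell type, in both directions. Neutrophil markers summed to 181 to 273 CPM in cMoPs and 1144 to 1992 CPM in monocytes, and macrophage markers to 105 to 135 CPM in cMoPs and 498 to 745 CPM in monocytes, with all 9 of each list measured. Of the neutrophil markers, 2 were higher and 3 lower in cMoPs on OP9-DLL1, and 0 higher and 5 lower on OP9. Mmp8 alone was at 6.70 to 15.8 CPM in cMoPs and 534 to 1520.0 CPM in monocytes, while Cxcr2 (1.08) and Cebpe (1.15) were the 2 higher in cMoPs on OP9-DLL1. Of the macrophage markers, 1 was higher and 6 lower in cMoPs on OP9-DLL1, and 0 higher and 7 lower on OP9. The 9 stromal markers summed to 46.9 to 66.2 CPM in cMoPs and 7.23 to 42.0 CPM in monocytes. Most of the cMoP sum was Igfbp4, at 44.9 to 64.4 CPM in cMoPs and 1.81 to 2.14 CPM in monocytes, and the other 8 summed to 1.81 to 4.97 CPM in cMoPs and 5.42 to 40.1 CPM in monocytes. Of the stromal list, Igfbp4 was the 1 higher in cMoPs on both stromas, with 2 lower on OP9-DLL1 and 6 on OP9. Among markers of other lineages, the cytotoxic granule gene Nkg7 was at 178 to 321 CPM in cMoPs and 0.947 to 1.92 CPM in monocytes, and the B cell receptor gene Cd79b at 44.3 to 63.1 CPM in cMoPs and 10.8 to 18.0 CPM in monocytes. The lectin gene Mgl2 was at 43.2 to 112 CPM in cMoPs and 0.208 to 3.12 CPM in monocytes, and the carbonic anhydrase gene Car2 at 6.38 to 18.97 CPM in cMoPs and 1.004 to 2.97 CPM in monocytes. These 4 genes were higher in cMoPs on both stromas, and were named after their values were seen. Lck, the other measured marker of T and NK cells, was called on neither stroma. Ppbp was at 0 in all cMoP libraries. Their part in the cell type differences was not tested.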

How the data were processed

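RNA of the 8 libraries was amplified with the SMARTer Ultra Low kit, which does not mark strand, per the labels' protocols. Per the submitters' processing notes, the tools included edgeR, limma, Salmon 1.5.2, featureCounts 2.0.3 and STAR 2.7.9a, and the build was mm10; in what order and with which annotation and model is not given in the sources used here. Values deposited by the authors are log2 CPM per library, normalized, with the form voom writes (0.5 reads added), from which whole reads were recovered for 100.0% of values (tolerance 0.01). The authors deposited fold changes on the log2 scale with p-values as well, turned here to the direction of the report, and a signed fold score that was not used. Of 13430 entries, 42 repeats of an identifier were dropped.

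Differences were tested with limma-trend (limma 3.58.1, R 4.3.3) on the deposited log2 values, 1 mean per group over 8 libraries (4 residual degrees of freedom), after a filter that kept the 13374 genes reaching 1 CPM in 2 or more libraries and dropped 14, 1 of them a lincRNA. Tests were two-sided, with Benjamini-Hochberg adjustment over all genes tested. The scripts were tested on simulated data. Gene positions are from GENCODE M21 (GRCm38, the assembly of mm10). Shared sequence is the share of a gene's 75-base exon windows found in transcripts of other genes. A fold against 0 reads is a lower bound on a floor of 3 counts over the group, and covers counting error alone: with no molecular identifiers, reads are not separate molecules.

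The lincRNAs, gene lists, rule and alternatives were chosen with earlier results of these data known. Named are lincRNAs of known role, up to 12 per direction and comparison by fold change (called, groups not overlapping, mean of 5 CPM or more in the higher group) and the 10 highest by mean CPM; others are said to be named after their values were seen. Alternatives were other filters, no trend, only the libraries compared, median centring, log2(CPM + 1), voom, weighted voom, a replicate block and leaving out each library.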

Additional observations from a re-analysis of the deposited data

How the results depend on the processing

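Counts here take calls in both directions together. The count of lincRNAs called on OP9-DLL1 against OP9 in monocytes was 5, all of them higher. It became 3 with no trend, 12 with log2(CPM + 1), 9 with voom and 3 with weighted voom. With 1 library left out it ranged from 1 to 13 (lowest without OP9-DLL1 replicate 2, highest without OP9 replicate 2). With median centring it was 7, 5 higher and 2 lower, so that 71.4% of calls were higher, against all 5. In cMoPs the count of 0 became 1 with no trend, 4 with only the 4 libraries of the comparison, 1 with median centring, 2 with log2(CPM + 1), 4 with weighted voom and 1 with the replicate block, and it stayed at 0 with each library left out. For the difference of responses, 0 became 1 with no trend and 0 to 5 with 1 library left out, and a fit on 4 libraries was not possible. Counts between cell types stayed within 1.5 times: with 1 library left out, 77 to 85 of 111 on OP9-DLL1 and 76 to 112 of 111 on OP9. Same-numbered libraries deviated together only weakly (r of 0.02 to 0.09, all positive). Such a correlation cannot tell whether these libraries share an animal, sort or day. The replicate block gave 7 calls in monocytes, against 5. Between cell types it gave 115 on OP9-DLL1 and 110 on OP9, against 111 on each. Of 80 calls of named lincRNAs, 64 were kept in every setting, 16 were lost in at least 1 and 0 reversed. Bvht between cell types on OP9 (-1.499 ± 0.58, adjusted p = 0.0499) was lost in 8, and without cMoP OP9-DLL1 replicate 2 or monocyte OP9-DLL1 replicate 2 Gm32633 lost the call between cell types on OP9-DLL1. Median centring moved the median of all genes by 0.11 log2 units between cell types on OP9-DLL1. Causes of these changes were not tested. At 79 to 105 reads for the median lincRNA, the median SE of a lincRNA contrast was 0.465 log2 units, and changes near that size were not detectable for such a lincRNA. Of the 49 tested lincRNAs averaging below 1 CPM, 6 were higher and 19 lower in cMoPs on OP9-DLL1, and 5 higher and 14 lower on OP9. Such a lincRNA was kept by the filter only through the libraries where it reached 1 CPM. These counts are hence partly fixed by the filter, and no conclusion is drawn from them. The shares of all genes at that level were not computed.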
